A study of Mus musculus with 4 samples.

Results

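The subunits of the oxidative phosphorylation (OXPHOS) system were examined in RNA sequencing of FAC-sorted embryonic interneurons with and without *Dnmt1*, the gene of a DNA methyltransferase. Members were taken by name from the deposited gene table, as *Nduf* genes of the a, b, c, s and v series, *Sdha* to *Sdhd*, *Uqcr*, *Cox4* to *Cox8* and *Atp5* genes, and the *mt-Nd*, *mt-Co*, *mt-Cytb* and *mt-Atp* genes. This gave 99 of 56883 rows, under 98 distinct names, since 2 rows were both named *Atp5o*. A further 10 rows with "-ps" in their name, which marks pseudogenes, were left out. Of the 99, 86 lay in nuclear DNA and 13 in mitochondrial DNA (mtDNA).

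The libraries came from tdTomato-positive cells of the basal telencephalon at E14.5, that is, at mid-gestation. Control embryos carried *Sst-Cre/tdTomato*, and *Dnmt1* KO embryos carried the same alleles together with *Dnmt1 loxP2*, so *Cre* was present in both genotypes and was driven by *Sst*, the somatostatin gene of postmitotic SST+ cells. Each genotype had 2 libraries of total RNA, numbered 1 and 2, and each library was a pool of several embryos, so that variation among individual embryos cannot be seen. Recovered reads came to between 6970247 and 8376711 per library. The deleted *Dnmt1* exons are a small piece of the transcript, so the count over the whole gene does not by itself test the deletion. It was 2238 and 2341 in control and 2164 and 2210 in *Dnmt1* KO. The log2 fold change was -0.066 (adjusted p = 0.461 by limma, described below). Among its validations, the paper reports a lower *Dnmt1* transcript count in sorted KO cells of the E14.5 cortex. It also reports lower DNMT1 staining in tdTomato-positive cells. *Sst*, the defining marker of the sorted cells, stood at 5580 and 5963 normalized counts in control and at 8303 and 7825 in *Dnmt1* KO.

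In oxidative phosphorylation, complexes I and II pass electrons to coenzyme Q, complex III passes them on to cytochrome c, and complex IV hands them to oxygen. Complexes I, III and IV pump protons across the inner mitochondrial membrane, and complex V, the ATP synthase, uses the gradient to make ATP. Complex II is built from nuclear genes alone, whereas the other complexes combine nuclear subunits with subunits whose genes lie on mtDNA. That DNA is transcribed as long RNAs that are cut into shorter ones.

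The unit throughout is the normalized count, a read count divided by 1 size factor per library. A total of 90 members reached a mean of at least 10 and were tested with all 14323 such genes (limma on log2(normalized count + 1), Benjamini-Hochberg adjustment over all of them, calls at 0.05). In the following, a log2 fold change is always *Dnmt1* KO against control on that scale. With 2 libraries per genotype an exact permutation test of a single value cannot go below p = 0.333, and each call therefore depends on the variance that limma pools over genes.

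In the values as deposited, subunit genes of nuclear DNA moved little between the genotypes, and those of mtDNA were mostly lower in *Dnmt1* KO. Of the 77 nuclear members tested, 2 were called lower and 0 higher, where 8.99% of all genes tested were called lower and 8.30% higher. At an unadjusted p under 0.05 there were 11 nuclear members, beside 4323 of all 14323 genes. On recovered reads edgeR called 2 nuclear members and DESeq2 called 0. Over all genes, edgeR called 1302 lower and 1226 higher of 14323, and DESeq2 called 595 lower and 555 higher of 28067. The median log2 fold change of the nuclear members was -0.093, with 60 of 77 below 0, beside a median of -0.0033 over all genes tested. Of the 13 members on mtDNA, 6 were called lower and 1 higher, with a median of -0.19 and 11 of 13 below 0. On recovered reads edgeR called 7 of them and DESeq2 called 4, namely *mt-Nd1*, *mt-Cytb*, *mt-Co1* and *mt-Atp6*. All 90 tested members had a 95% confidence interval inside ±1 on the log2 scale, and the outermost limits were -0.73 and 0.82. The median standard error was 0.108 for nuclear and 0.058 for mtDNA members, so calls in the 2 groups did not rest on like precision. With the trend over transcript length removed, as described below, the mtDNA median was -0.013 and *mt-Co1* alone was called lower. Whether the 2 genomes differed from each other was not tested, as the genes on mtDNA share transcripts and are not independent.

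**Figure D1:**
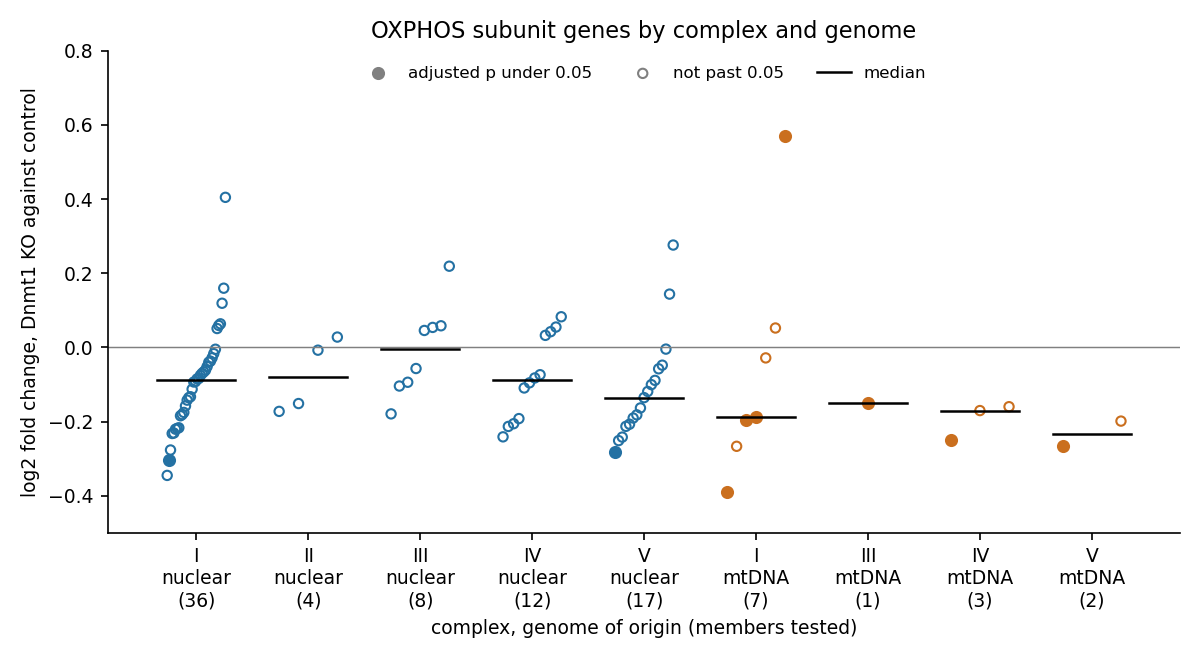
Log2 fold change of each tested member, Dnmt1 KO against control, by complex (I to V) and by genome of origin, with the number tested in parentheses; each point is a gene, filled where limma's adjusted p was under 0.05, and the black bar is the median. Nuclear medians lie between -0.14 and -0.0056, and the mtDNA genes lie below 0 except for mt-Nd3 at 0.57 and mt-Nd5 at 0.05.

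Summed over members, the genes on mtDNA held 0.715% and 0.707% of all normalized counts in control and 0.626% and 0.605% in *Dnmt1* KO. The nuclear members held 0.502% and 0.506% in control and 0.465% and 0.460% in *Dnmt1* KO. Neither sum overlapped between the genotypes. The ratio of the mtDNA sum to the nuclear sum was 1.42 and 1.40 in control and 1.35 and 1.31 in *Dnmt1* KO. The 2 rRNAs of mtDNA, which are no members, moved the same way, with 6.32% and 6.13% of counts in control and 5.62% and 5.27% in *Dnmt1* KO. The paper states that rRNA was depleted from the amplified libraries. These shares are therefore of rRNA left after that step, and how far it shaped them was not tested.

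The sorted fractions also differed in markers of other cells, and in bulk RNA fewer cells of a type and less RNA per cell cannot be told apart. Of 12 radial glia markers, 10 were called lower and *Sox2* higher, and their summed level was 13522 to 13580 in control and 8059 to 8368 in *Dnmt1* KO. Of 12 cell cycle markers 11 were lower, with sums of 7021 to 7221 against 4915 to 4936, and of 10 tested vascular and microglial markers 9 were lower, with sums of 1770 to 1817 against 823 to 827. All 8 tested blood markers were lower, with sums of 2434 to 2615 against 587 to 593. Of 10 excitatory lineage markers 7 were lower and *Bcl11b* higher, with sums of 6221 to 6297 against 6064 to 6286. *Bcl11b* made up much of these sums, at 3349 and 3317 in control and 4596 and 4514 in *Dnmt1* KO. The overlap of the sums therefore does not describe the 7 lower genes. In contrast, 9 of 10 interneuron markers were higher, with sums of 21258 to 21305 against 31121 to 31536. Over all genes tested, 8.99% were called lower and 8.30% higher. None of these lists had a gene at 0 in every library. Their part in the OXPHOS values was not tested.

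Complex I, the NADH dehydrogenase, had 36 nuclear members, all of which were tested. *Ndufv1*, the subunit of the peripheral arm that binds NADH, was the only one called. It stood at 668 and 677 in control and at 535 and 554 in *Dnmt1* KO, and the genotypes did not overlap. The mean fell from 672 ± 6.56 to 544 ± 13.7 (SD, n = 2 each; log2 fold change -0.30, standard error 0.080, adjusted p = 0.0159 by limma). The call was lost without control library 1 (adjusted p = 0.0539), without control library 2 (0.0711) and without *Dnmt1* KO library 1 (0.0745).

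Over the 36 genes, 30 log2 fold changes were below 0 and the median was -0.088. The counts did not overlap between genotypes in 12 members that were lower in *Dnmt1* KO and in 4 that were higher, where 29.0% and 28.4% of all genes tested had such counts. Among nuclear subunits of complex I, *Ndufa13* had the highest level per length, with 883 normalized counts per kb of transcript in control. Its counts of 503, 515, 494 and 520 over control 1, control 2, *Dnmt1* KO 1 and *Dnmt1* KO 2 overlapped. The lowest level per kb depended on the transcript length used, and fell on *Ndufb2* (36.6) or *Ndufb3* (41.8).

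Complex II, the succinate dehydrogenase, oxidizes succinate in the citric acid cycle and delivers the electrons to coenzyme Q. *Sdha*, which holds the flavin and the site for succinate, stood at 844 and 858 in control and at 910 and 787 in *Dnmt1* KO (log2 fold change -0.0075, 95% confidence interval -0.18 to 0.16). *Sdhb*, the iron-sulfur subunit, was at 430 and 476 in control and at 417 and 398 in *Dnmt1* KO (interval -0.35 to 0.051), the only complex II gene whose counts did not overlap. The membrane anchors *Sdhc* (374 and 397 against 470 and 329) and *Sdhd* (121 and 140 against 125 and 106) overlapped, with intervals of -0.26 to 0.31 and -0.53 to 0.19. None of the 4 was called by limma, edgeR or DESeq2, and 0 had an unadjusted p under 0.05. In *Sdhc* the 2 *Dnmt1* KO libraries lay on either side of control, which is the widest split between replicates in this complex. *Sdha* was the highest and *Sdhd* the lowest of the 4 per length, at 273 and 102 normalized counts per kb in control.

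Complex III, the cytochrome bc1 complex, had 8 nuclear members, with 4 below and 4 above 0 and a median of -0.0056. By limma, edgeR and DESeq2 0 were called, and 0 had an unadjusted p under 0.05 in limma. Per length, *Uqcrq*, a small membrane subunit, was the highest at 484 normalized counts per kb in control, with counts of 497 and 549 in control and 527 and 562 in *Dnmt1* KO. *Uqcr11*, another small subunit, was the lowest at 90.3 per kb, with counts of 268 and 240 in control and 218 and 229 in *Dnmt1* KO. By the median transcript length these places went to *Uqcrc1*, a core subunit, and to *Uqcr10*.

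Complex IV, the cytochrome c oxidase, is where tissue-specific subunit isoforms are best known. The forms used by most tissues were the ones that reached the mean of 10 normalized counts. *Cox4i1* stood at 1024 and 963 in control and at 887 and 955 in *Dnmt1* KO, whereas *Cox4i2* did not exceed 3.58 in any library. *Cox6a1* was at 447 and 473 in control and at 406 and 371 in *Dnmt1* KO, without overlap (log2 fold change -0.24; adjusted p = 0.0978 by limma), and its heart and muscle partner *Cox6a2* had 0 reads in every library. *Cox6b1* was at 318 and 283 in control and at 326 and 249 in *Dnmt1* KO, and its testis form *Cox6b2* did not exceed 2.19.

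The same held for the smallest subunits. *Cox7a2* stood at 168 and 160 in control and at 188 and 161 in *Dnmt1* KO, and *Cox7a2l* at 403 and 349 against 374 and 335. The heart and muscle form *Cox7a1* did not exceed 1.09. *Cox7b* was at 365 and 345 in control and at 376 and 351 in *Dnmt1* KO, and *Cox7b2* had 0 reads. *Cox8a* was at 372 and 399 in control and at 351 and 315 in *Dnmt1* KO, and *Cox8b* and *Cox8c* had 0 reads. A count of 0 allows up to 3 reads, which is 2.68 to 3.28 normalized counts depending on the library. These limits cover counting error only.

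In all, 12 of the 20 nuclear complex IV members were tested, and their log2 fold changes had a median of -0.089. None (0) passed limma's threshold, 2 had an unadjusted p under 0.05, and edgeR and DESeq2 called 0 as well. *Cox6c* had the highest level per length, at 3167 normalized counts per kb in control. Its counts were 1485 and 1702 in control and 1444 and 1341 in *Dnmt1* KO (log2 fold change -0.19, limma's adjusted p = 0.0806). *Cox7b* was the lowest at 154 per kb, or *Cox7a2* at 32.8 by the median transcript length. The members below the filter were *Cox4i2*, *Cox6a2*, *Cox6b2*, *Cox6c2*, *Cox7a1*, *Cox7b2*, *Cox8b*, *Cox8c* and the second *Atp5o* row.

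Complex V had 17 tested nuclear members, of which 15 were below 0, with a median of -0.14. Counts of 13 were lower in *Dnmt1* KO without overlap, where 29.0% of all genes tested were. *Atp5h*, a subunit of the peripheral stalk that GENCODE lists as *Atp5pd*, was the only one called. It stood at 1028 and 1056 in control and at 878 and 835 in *Dnmt1* KO. Its mean fell from 1042 ± 19.4 to 856 ± 30.5 (SD, n = 2 each; log2 fold change -0.28, standard error 0.070, adjusted p = 0.0108 by limma). The call was lost without control library 2 (adjusted p = 0.0609) and without *Dnmt1* KO library 2 (0.0706). *Atp5b*, the catalytic beta subunit, had the highest level per length at 1675 normalized counts per kb in control, with counts of 3634 and 3586 in control and 3536 and 3402 in *Dnmt1* KO (log2 fold change -0.058, adjusted p = 0.465 by limma).

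The c subunit, which forms the rotating ring of the synthase, comes from 3 genes that encode the same mature protein. *Atp5g3* had the highest level per length, with 598 normalized counts per kb in control against 287 for *Atp5g2* and 267 for *Atp5g1*, and counts of 634 and 569 in control and 522 and 518 in *Dnmt1* KO. *Atp5g2* stood at 231 and 189 in control and at 172 and 181 in *Dnmt1* KO. *Atp5g1* went the other way, with 182 and 145 in control and 185 and 209 in *Dnmt1* KO. None of the 3 was called by limma, edgeR or DESeq2, with limma's adjusted p-values of 0.119, 0.264 and 0.227 and log2 fold changes of -0.21, -0.24 and 0.28. The lowest level per kb in complex V fell on *Atp5md* (49.7), or on *Atp5mpl* (175) by the median transcript length.

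The promoter windows of the called nuclear genes are shown because nuclear OXPHOS promoters are known for sites of NRF1, of ETS family factors such as GABPA, and of YY1. RefSeq windows (GRCm38.p6) reached from 250 bases before to 50 after the gene start and were found for 65 of the 77 tested nuclear members. They were searched on both strands for GCATGCGC (NRF1), CCGGAAGT (ETS) and AAGATGGCG (YY1). Capitals mark a match. The window of *Ndufv1* is chr19:4012706-4013005 and that of *Atp5h* is chr11:115419870-115420169, both on the minus strand and written 5′ to 3′.
Ndufv1: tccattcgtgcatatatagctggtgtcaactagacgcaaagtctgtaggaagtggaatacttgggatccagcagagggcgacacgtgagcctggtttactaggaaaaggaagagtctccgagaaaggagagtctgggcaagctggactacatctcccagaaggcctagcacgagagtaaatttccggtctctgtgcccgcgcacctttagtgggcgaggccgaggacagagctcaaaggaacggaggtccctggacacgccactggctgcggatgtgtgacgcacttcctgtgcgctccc
Atp5h: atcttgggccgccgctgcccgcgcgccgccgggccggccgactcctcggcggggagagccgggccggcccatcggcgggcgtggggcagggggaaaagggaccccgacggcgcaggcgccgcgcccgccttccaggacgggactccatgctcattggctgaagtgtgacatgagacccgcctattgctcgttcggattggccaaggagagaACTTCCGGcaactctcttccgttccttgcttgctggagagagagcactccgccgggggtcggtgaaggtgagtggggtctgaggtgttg

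The window of *Ndufv1* held none of the 3 words and that of *Atp5h* held 1 ETS word, on the opposite strand. Of the 65 genes, 15.4% held the NRF1 word in a window, 7.69% the ETS word and 10.8% the YY1 word, where the shares of all 27025 genes with windows of the same length were 3.05%, 4.31% and 1.64%. At least 1 of the 3 words was found in 21 of the 65 members (32.3%), against 8.47% of all these genes. Some genes had more than 1 window and were counted once. A word match is a description of the window and not a site of binding.

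The 13 protein genes of mtDNA are the only subunit genes with an origin outside the nucleus. *mt-Co1*, the catalytic subunit of complex IV, had counts of 16992 and 16670 in control and 14507 and 13797 in *Dnmt1* KO. The groups did not overlap, and the mean fell from 16831 ± 227 to 14152 ± 501 (SD, n = 2 each; log2 fold change -0.25, standard error 0.037, limma's adjusted p = 0.000268). *mt-Atp6*, the proton channel subunit of complex V, was at 6664 and 7236 in control and at 5779 and 5769 in *Dnmt1* KO (log2 fold change -0.27, standard error 0.046, limma's adjusted p = 0.000986). Whichever library was left out, both stayed called, with adjusted p-values of at most 0.00467 and 0.0163. After the trend over transcript length was removed, however, *mt-Atp6* stood at a log2 fold change of -0.057 (adjusted p = 0.468 by limma) and was not called.

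The remaining 4 lower calls were smaller or rested on more variable counts. *mt-Cytb*, the only mtDNA gene of complex III, stood at 9973 and 9518 in control and at 8858 and 8713 in *Dnmt1* KO (log2 fold change -0.15, limma's adjusted p = 0.0181). *mt-Nd1* was at 4215 and 3907 against 3725 and 3367 (log2 fold change -0.20, adjusted p = 0.0261), and *mt-Nd2* at 1579 and 1534 against 1393 and 1343 (log2 fold change -0.19, adjusted p = 0.0461, the called member nearest to the threshold). *mt-Nd6*, the only protein gene encoded on the light strand, was at 366 and 413 against 310 and 284 (log2 fold change -0.39, adjusted p = 0.0199). Each of these 4 did not overlap between genotypes, and each lost its call with at least 1 library left out, with adjusted p-values of up to 0.125, 0.254, 0.232 and 0.162. The number of mtDNA genes called lower was 3 without control library 1, 5 without control library 2, 6 without *Dnmt1* KO library 1 and 2 without *Dnmt1* KO library 2. In total 9 of the 13 were lower in *Dnmt1* KO without overlap, where 29.0% of all genes tested were.

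Not past the threshold were *mt-Co2* (2512 and 2294 against 2100 and 2167, limma's adjusted p = 0.0570) and *mt-Nd4l* (557 and 509 against 461 and 425, 0.0590), the members next to it on the other side. *mt-Co3* stood at 2387 and 2149 in control and at 2165 and 1898 in *Dnmt1* KO, which overlapped. *mt-Atp8*, which shares 43 bases with *mt-Atp6*, stood at 506 and 505 in control and 467 and 416 in *Dnmt1* KO. The long complex I genes *mt-Nd4* (3954 and 3644 against 3749 and 3695) and *mt-Nd5* (3700 and 3964 against 4023 and 3920) overlapped, with intervals of -0.14 to 0.080 and -0.053 to 0.16. *mt-Nd5* shares 14 bases with *mt-Nd6* on the opposite strand, and *mt-Nd4* shares 7 bases with *mt-Nd4l*. Whether reads were counted by strand is not given in the sources used here, so that counts of *mt-Nd5* and *mt-Nd6* are uncertain there.

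**Figure D2:**
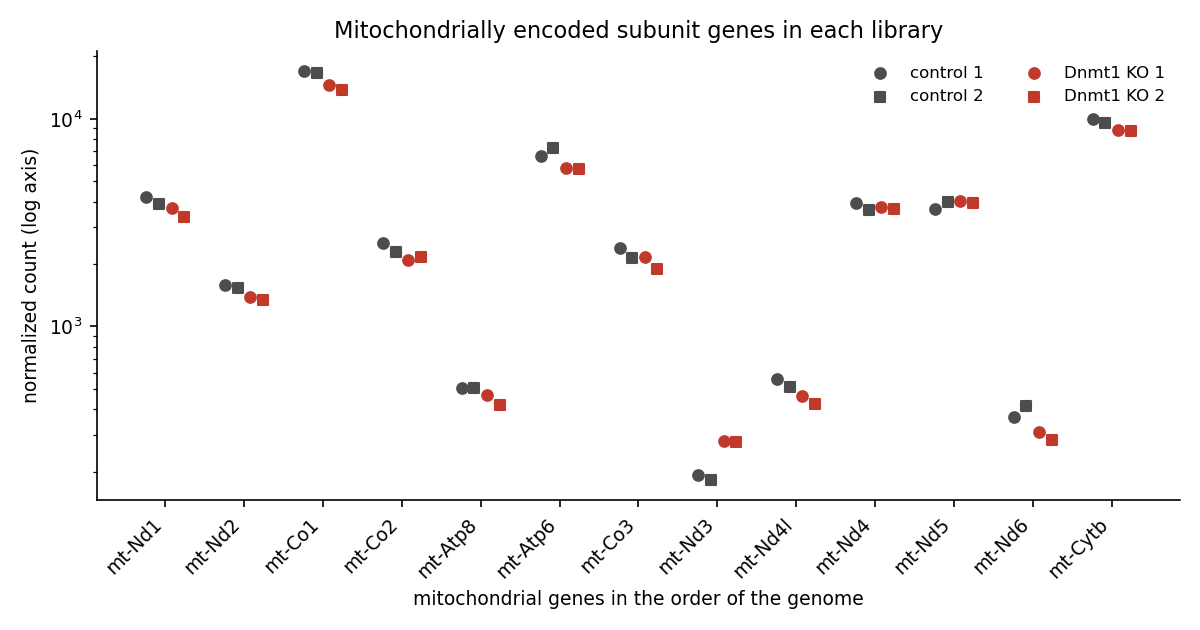
Normalized counts (log axis) of the 13 protein genes of mtDNA in their order along the genome, with control libraries in grey and Dnmt1 KO libraries in red (circles, replicate 1; squares, replicate 2). Most genes lie slightly lower in Dnmt1 KO, mt-Nd4 and mt-Nd5 overlap, and mt-Nd3 lies higher, at 282 and 276 against 193 and 183.

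Normalized counts per length differed widely along the same genome. How far counting in short or overlapping genes, such as *mt-Atp8* (204 bases), shaped such values was not tested. In control, *mt-Co1* (10894 normalized counts per kb), *mt-Atp6* (10206) and *mt-Cytb* (8519) were the highest, and *mt-Nd1* (4243) was the highest of complex I. *mt-Nd3* (540) was the lowest of complex I and of all 13, *mt-Co3* (2893) the lowest of complex IV, and *mt-Atp8* (2480) was the lower of the complex V pair. Several of these genes have near-identical copies in nuclear DNA, described next, and the order depended on where their reads were counted. With reads of the copies added, *mt-Atp6* (20513 per kb) was above *mt-Co1* (11852), and *mt-Nd6* (751), not *mt-Nd3* (1101), was the lowest of the 13. Which reads came from a gene and which from its copy was not tested.

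*mt-Nd3*, a small membrane subunit of complex I, was the only member called higher. It stood at 193 and 183 in control and at 282 and 276 in *Dnmt1* KO (log2 fold change 0.57, standard error 0.12, limma's adjusted p = 0.00372), without overlap, and it stayed called whichever library was left out (adjusted p of at most 0.0285). DESeq2 gave it an adjusted p of 0.0559, and removal of the length and GC trend a log2 fold change of 0.16 (adjusted p = 0.422 by limma). The gene table, however, also holds *Gm28438*, a nuclear copy of *mt-Nd3*. In GRCm39 *mt-Nd3* is the exon at chrM:9459-9806 on the plus strand, and *Gm28438* lies at chr1:24651856-24652200 on the minus strand. Over 345 aligned bases they differed by 1 substitution, T3C, counted from the first base of each gene with the base of *mt-Nd3* first. The first 120 bases of each are shown because they hold the only base that differs, which is in capitals.
mt-Nd3: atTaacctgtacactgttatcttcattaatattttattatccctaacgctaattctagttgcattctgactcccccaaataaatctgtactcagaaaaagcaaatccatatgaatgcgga
Gm28438: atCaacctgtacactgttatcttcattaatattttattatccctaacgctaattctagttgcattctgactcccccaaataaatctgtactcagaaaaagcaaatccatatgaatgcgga

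The row of *Gm28438* stood at 192 and 198 in control and at 54.3 and 45.9 in *Dnmt1* KO (log2 fold change -1.95, standard error 0.18, limma's adjusted p = 3.19e-06). Its share of the counts of gene and copy together was 49.9% and 52.0% in control and 16.1% and 14.2% in *Dnmt1* KO. Added up, gene and copy gave 386 and 381 in control and 336 and 322 in *Dnmt1* KO, and the log2 fold change was then -0.22 (95% confidence interval -0.43 to -0.0089, adjusted p = 0.148 by limma). The higher count of *mt-Nd3* thus turned to a lower one, not called, once the reads of the copy were added. The bases of single reads at the differing position were not examined here.

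The other mtDNA genes with a full nuclear copy were *mt-Co2*, *mt-Atp6*, *mt-Co3* and *mt-Nd4l*, whose copies *Gm28661*, *Gm10925*, *Gm28437* and *Gm10222* lie in the same stretch of chromosome 1 and matched them without a substitution over 294 to 783 aligned bases. Here the counts were shared almost evenly in every library, and the copy held between 48.3% and 54.7%. Further partial copies belonged to *mt-Nd4* (*Gm28439*) and *mt-Co1* (*Gm29216*, *Gm13340*). *Gm28439* stood at 155 and 148 in control and 76.9 and 63.4 in *Dnmt1* KO (log2 fold change -1.11, limma's adjusted p = 0.000537) but held at most 3.90% of the counts of the pair.

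**Figure D3:**
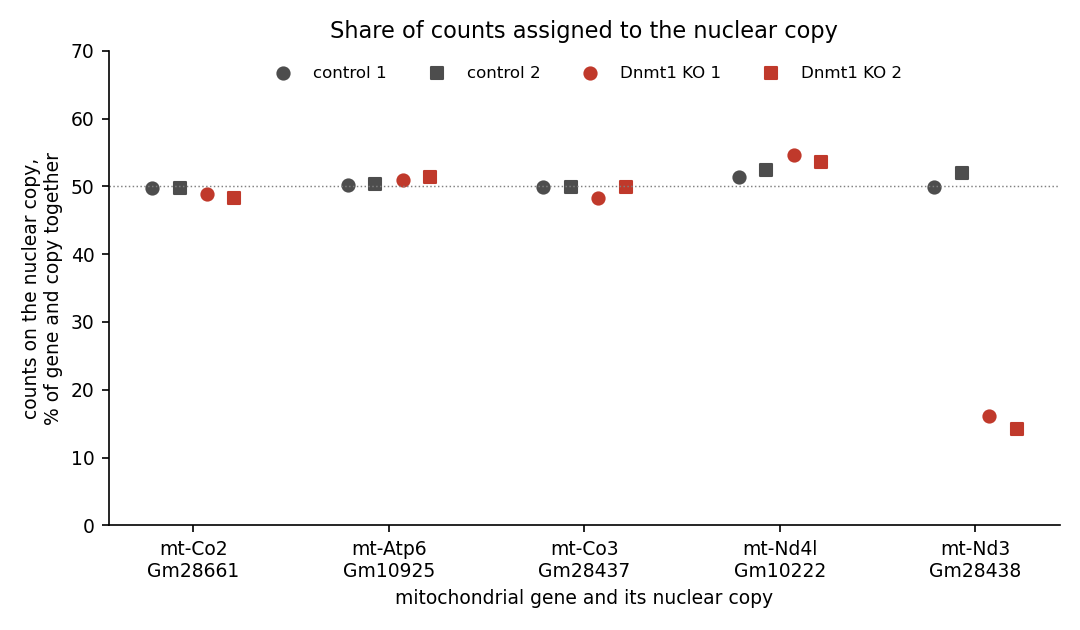
Share of the normalized counts of a mitochondrial gene and its nuclear copy together that was assigned to the copy, in each library (control grey, Dnmt1 KO red; circles, replicate 1; squares, replicate 2; the dotted line marks 50%). The share lies near the line for 4 pairs in all libraries, and for mt-Nd3 and Gm28438 it is 49.9% and 52.0% in control and 16.1% and 14.2% in Dnmt1 KO.

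Reads of 9 nuclear rows that each held at least 25% of the 31-base words of an mtDNA gene were added to 7 mtDNA genes. Then 8 of the 13 genes were called lower and 0 higher, where 8.96% of all genes were called lower. This alternative was chosen after the data were seen. The new calls were *mt-Co2* (5003 and 4570 against 4116 and 4194, limma's adjusted p = 0.0117) and *mt-Co3* (4758 and 4285 against 4190 and 3787, 0.0466). *mt-Co1* and *mt-Atp6* kept theirs with log2 fold changes of -0.25 and -0.24. The median over the 13 genes was -0.20, and 12 of 13 were below 0 with *mt-Nd5* the exception. The summed level was 67685 and 66556 in control and 59747 and 58067 in *Dnmt1* KO, a ratio to the nuclear members of 1.80 and 1.77 against 1.68 and 1.66.

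Among the nuclear members, 64 of 77 shared under 25% of their 31-base words with any other gene and 13 shared at least that much, through overlapping neighbours or processed copies. *Atp5h* shared 24.5% and *Ndufv1* 0.0699%. Counts of members with much shared sequence, such as *Ndufb11* (68.0%, mostly with its neighbour *Rbm10*), are uncertain.

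Transcript length and base composition moved with the genotype in these libraries. OXPHOS transcripts were short, and those of mtDNA were also low in GC. Across 12278 protein-coding genes the log2 ratio of a *Dnmt1* KO to a control library rose by 0.0696 to 0.0719 per doubling of transcript length, whereas the ratio between libraries of the same genotype changed by -0.00098 and 0.0013. The tested nuclear members had a median length of 1080 bases and the mtDNA genes of 784, against 3346 for all genes. The GC content of the mtDNA genes had a median of 37.1%, and only 1.62% of genes tested were at or below that, while the nuclear members (51.1%) were near the middle (49.9%).

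After the trend over length was removed from each library, the median of the nuclear members was 0.044, close to that of all genes (0.033), and 0 were called lower and 1 higher. The higher one was *Atp5g1* (log2 fold change 0.49, limma's adjusted p = 0.0319). After removal of the trend over length and GC together, the nuclear median was 0.040 beside 0.042 for all genes, *Atp5g1* was again the only call (0.53, limma's adjusted p = 0.0221) where 10.4% of all genes were called higher, and *Ndufv1* (-0.17, 0.163) and *Atp5h* (-0.11, 0.343) were no longer called.

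Against the values as deposited, the median of the mtDNA genes (-0.19) rose without the length trend and fell without the trend over length and GC together. Without the length trend their median was -0.013, and 1 was called lower, *mt-Co1* (log2 fold change -0.14, limma's adjusted p = 0.0177), where 7.44% of all genes were. In that fit *mt-Nd3* was called higher (log2 fold change 0.78, limma's adjusted p = 0.000258), as were 1260 of all 14285 genes. Without the trend over length and GC together the median was -0.35 and 11 of 13 were called lower, where 7.67% of all genes were, led by *mt-Nd6* and *mt-Atp8* at -0.72 each. As deposited these 2 genes were at -0.39 and -0.20, and the trend taken off was 0.33 and 0.52. Few genes had GC as low as the mtDNA genes, and the error of the fitted trend did not enter the p-values. *mt-Co1* was called lower under each of these settings. The size of the mtDNA change, the genes called and, for some genes, the sign thus depended on the setting.

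**Figure D4:**
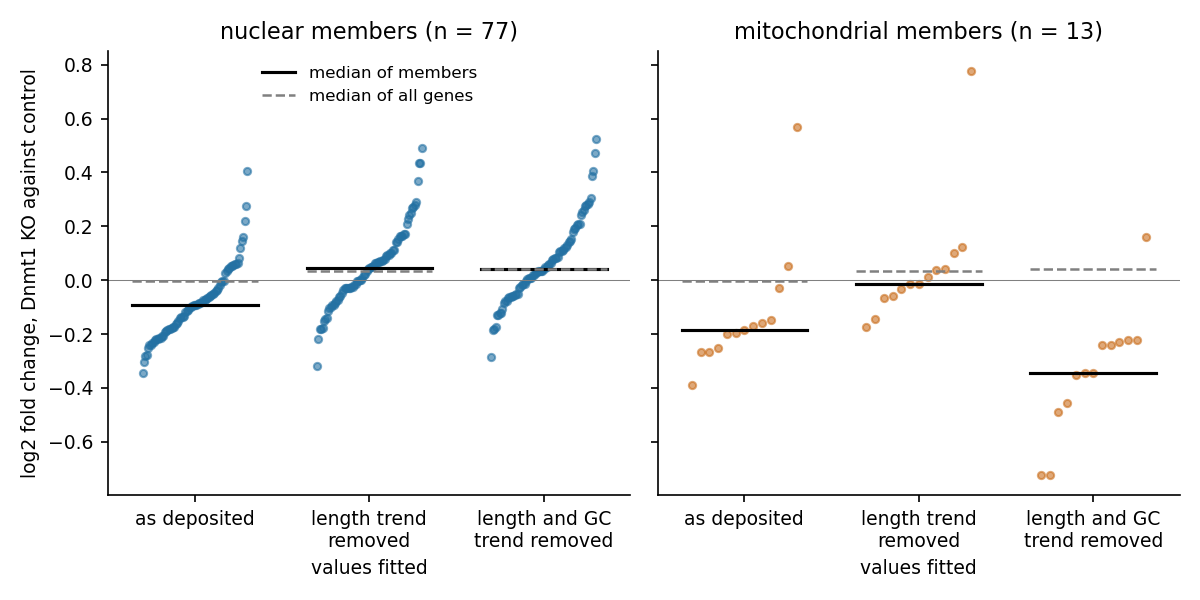
Log2 fold change of each nuclear (left, n = 77) and mtDNA member (right, n = 13), Dnmt1 KO against control, from the values as deposited, after removal of the trend over transcript length, and after removal of the trend over length and GC content. Solid bars are medians of the members and dashed bars medians of all genes; the nuclear median moves from -0.093 to 0.044 and 0.040, and the mtDNA median from -0.19 to -0.013 and -0.35.

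Genes around the subunits were read from fixed lists. Among 11 further subunits and electron carriers, such as *Cycs* and *Cyc1* (cytochromes c and c1), 0 were called by limma, edgeR or DESeq2 and 4 had an unadjusted p under 0.05 in limma, with a median log2 fold change of -0.18. Of 48 assembly factors and of 29 genes that replicate, transcribe or process mtDNA, limma, edgeR and DESeq2 called 0, with 6 and 3 at an unadjusted p under 0.05 and medians of -0.083 and -0.084. Of 12 nuclear regulators of mitochondrial genes 9 were tested and 0 called by the same 3 tools, with 2 at an unadjusted p under 0.05 and a median of 0.032. *Nrf1*, a main activator of OXPHOS genes, was at 427 and 445 in control and at 423 and 391 in *Dnmt1* KO. Over all genes tested, 4323 of 14323 had an unadjusted p under 0.05 in limma. A missing call does not show that values did not differ.

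Of 17 citric acid cycle genes, 1 was called lower and 0 higher. This was *Suclg2*, a subunit of succinyl-CoA ligase, at 74.3 and 64.3 in control and 34.5 and 27.3 in *Dnmt1* KO (log2 fold change -1.14, limma's adjusted p = 0.00684, up to 0.0808 with a library left out). Of 17 glycolysis genes, 9 were called lower and 0 higher, with a median of -0.25. Over all genes tested, 8.99% were called lower and 8.30% higher. The largest were *Aldoc*, a brain aldolase, at 188 and 218 in control and 76.9 and 73.2 in *Dnmt1* KO (log2 fold change -1.42, limma's adjusted p = 2.24e-05), *Hk2*, a hexokinase, at 89.5 and 93.9 against 49.3 and 55.7 (-0.79, 0.0162), and *Ldha*, a lactate dehydrogenase subunit, at 586 and 560 against 412 and 331 (-0.63, 0.000702). After the length and GC trend was removed, 8 of 17 were called lower, where 7.67% of all genes were, and the median was -0.19. Of the 3 genes named, *Hk2* lost its call with a library left out (adjusted p of up to 0.113). The difference between glycolysis and OXPHOS genes was not tested.

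**Figure D5:**
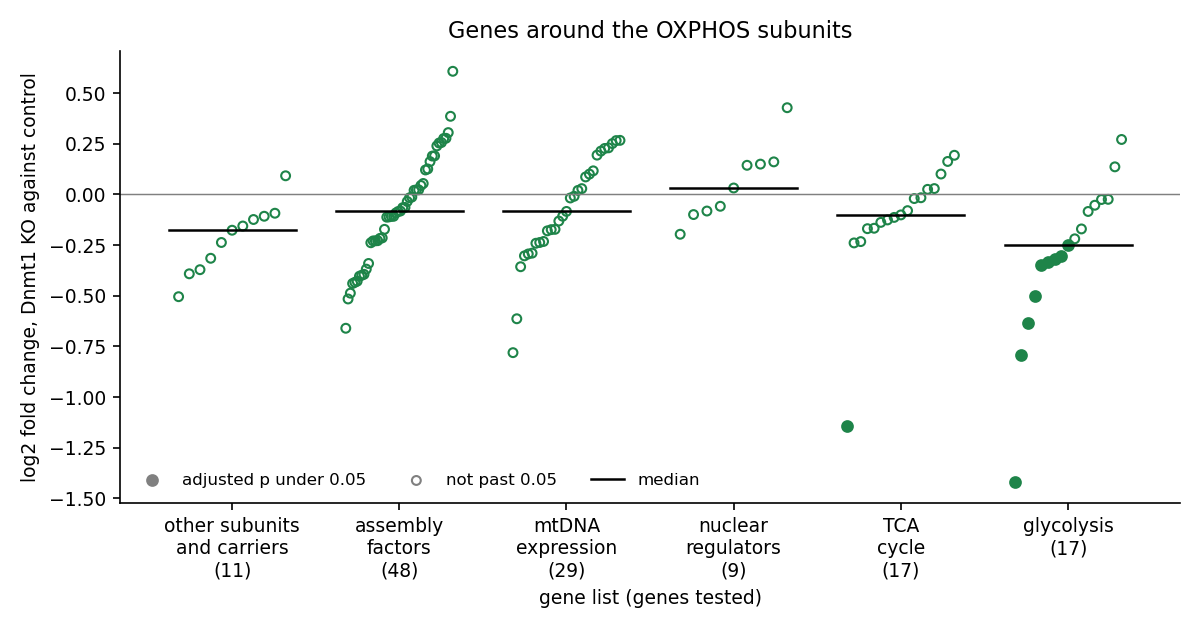
Log2 fold change, Dnmt1 KO against control, of the genes in 6 lists around the OXPHOS subunits, with the number tested in parentheses; filled points have an adjusted p under 0.05 and the black bar is the median. Filled points appear in the citric acid (TCA) cycle (1 gene) and in glycolysis (9 genes), all below 0.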

How the data were processed

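Total RNA of FAC-sorted tdTomato-positive cells was sequenced in 4 libraries, 2 per genotype, grouped by the sample labels. The submitters' notes and the paper's methods name STAR (2.7.9a) with GRCm39, Salmon (1.10.1) and DESeq2 (1.32.0), after trimming with Trim Galore (0.6.7). The kit marks strand, but the use of strand in counting, and which of the annotation releases listed in the paper served it, are not given in the sources used here. The deposited signal is the count per gene that the authors normalized by DESeq2 size factors; all 89965 values above 0 (100%) were whole multiples of 1 read of their library, to within 0.0001 of a read, and reads were recovered from them.

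Genes averaging 10 or more normalized counts (14323) entered limma 3.58.1 in R 4.3.3 on log2(normalized count + 1), with a variance trend, genotype as the only term and Benjamini-Hochberg adjustment. The authors' own test, DESeq2 (1.42.0 here), edgeR 4.0.16 and limma-voom were run on recovered reads as alternatives. In simulated counts for these genes with 200 changed, limma recovered 96% of genes with a log2 change of 1 and 62% at 0.5, with 10 false calls. Positions and lengths came from GENCODE M39 (GRCm39; 38 tested genes were not matched), the transcript with the longest coding sequence being used, and *Ndufa4* was counted in complex IV. Trends over length and GC were fitted per library with splines of 5 degrees of freedom, and the error of these fits did not enter the p-values. Sequence shared with other genes was measured as identical words of 31 bases on either strand. Tables and figures were made in Python 3.11.15 with pandas 2.3.3 and matplotlib 3.10.9.

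The members, the gene lists and the tests were chosen with earlier results of these data known. The genes named are all mtDNA and complex II members, up to 5 called nuclear members per other complex with a mean of at least 100, the highest and lowest per length, isoform pairs, members below the filter or nearest the threshold, and up to 3 called genes per other list. A gene that this rule also names is not reported here. The genes named as copies or with shared sequence, and *Nrf1*, *Cycs*, *Cyc1*, *Sox2* and *Bcl11b*, were chosen after their values were seen.

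As alternatives, the pseudocount was 0.5 or 10 and the filter a mean of 1 or 50. Others were TMM, quantile and equal-total scaling, no variance trend, the trends removed, the replicate number as a block, another transcript length, and each library left out, for which limma assumes that the lone library varies like the others. Removal of the GC trend alone and the addition of reads of nuclear copies were chosen after the data were seen.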

Additional observations from a re-analysis of the deposited data

How the results depend on the processing

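Members under the mean of 10 normalized counts were not tested. Without limma's variance trend 0 nuclear and 0 mtDNA members were called, as were 0 of all 14323 genes (3339 at an unadjusted p under 0.05). Pseudocount, TMM factors, edgeR and limma-voom left the counts of called members within 1.5 times. With quantile normalization or with equal totals over nuclear genes that are not rRNA, 5 nuclear members were called lower, beside 1171 and 1507 of all 14323 genes, and in the latter the nuclear median was -0.13. Under quantile normalization *mt-Nd5* was at -0.015, under equal totals *Sdhc* was at -0.0099 and *Cox7b* at -0.0053, and in edgeR *Sdha* was at 0.00023, each across 0 from its value above. DESeq2 called 0 nuclear members lower and 0 mtDNA members higher. The causes of these changes were not tested.

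With the length and GC trend removed, 0 nuclear members were called lower and 1 higher (median 0.040), 11 mtDNA members were lower and 0 higher (median -0.35), and these named members crossed 0: *mt-Nd5* -0.23, *Ndufa13* 0.24, *Sdha* 0.032, *Cox4i1* 0.12, *Cox6a1* 0.0085, *Cox6b1* 0.18, *Cox6c* 0.035, *Cox7a2l* 0.11, *Cox7b* -0.086, *Cox8a* 0.035, *Atp5b* 0.026, *Atp5g3* 0.0035. With the length trend alone removed, 0 nuclear members were lower and 1 higher (median 0.044), 1 mtDNA member was lower (median -0.013), and the members across 0 were *mt-Nd4* 0.10, *mt-Cytb* 0.011, *mt-Co2* 0.039, *mt-Co3* 0.041, *Ndufa13* 0.21, *Cox4i1* 0.091, *Cox6b1* 0.14, *Cox6c* 0.025, *Cox7a2l* 0.064, *Cox8a* 0.0023. With the GC trend alone removed, 0 nuclear members were lower (median -0.029), and 12 mtDNA members were lower and 0 higher (median -0.41). Of all 14285 genes in that fit, 1141 were called lower. The members across 0 were *mt-Nd5* -0.25, *Ndufa13* 0.10, *Sdha* 0.066, *Cox6b1* 0.035, *Cox7a2l* 0.026, *Cox7b* -0.070, *Atp5b* 0.049. The replicate numbers share only a number, since control and Dnmt1 KO pools of the same number did not deviate together (correlation -0.085 over 14323 genes). With the replicate block 4 nuclear members were called lower, beside 1555 of all 14323 genes. With the block and the length and GC trend removed 0 were lower and 2 higher, beside 1770 of 14285 genes higher. The log2 fold changes were the same as without the block. With reads of nuclear copies added, 0 mtDNA members were higher in every fit, and *mt-Nd3* was at -0.22, or at -0.21, -0.23, -0.25 and -0.19 without control library 1, control library 2, Dnmt1 KO library 1 and Dnmt1 KO library 2. The first and the last of these fits called 3 mtDNA members lower, without Dnmt1 KO library 1 or 2 the median was -0.25 or -0.14, and without control library 1 *mt-Nd4* was at 0.00022. Copies added and the length and GC trend removed gave 12 lower, beside 1091 of all 14277 genes (median -0.35, *mt-Nd3* -0.65, *mt-Nd5* -0.24). Copies added with the length trend removed gave 1 lower, beside 1060 of all 14277 genes (median -0.012, *mt-Nd3* -0.012, *mt-Nd4* 0.071, *mt-Cytb* 0.0099, *mt-Co2* 0.0049, *mt-Co3* 0.019). Leaving out 1 library at a time, 0 to 3 nuclear and 2 to 6 mtDNA members were called lower, the medians ranged from -0.11 to -0.075 and from -0.25 to -0.14, and the log2 fold changes that crossed 0 ranged over *mt-Nd4* -0.087 to 0.031, *Ndufa13* -0.042 to 0.032, *Ndufb2* -0.42 to 0.061, *Sdha* -0.11 to 0.10, *Sdhc* -0.23 to 0.28, *Uqcrq* -0.014 to 0.13, *Cox6b1* -0.27 to 0.12, *Cox7a2* -0.032 to 0.20, *Cox7a2l* -0.18 to 0.020, *Cox7b* -0.017 to 0.082, *Atp5md* -0.0020 to 0.29. Of members named for their level or shared sequence only, *Uqcr10* ranged from -0.10 to 0.54, *Ndufb11* from -0.11 to 0.040 and *Atp5mpl* from -0.23 to 0.13, and with the length and GC trend removed *Ndufb11* was at 0.12 and *Atp5mpl* at 0.081. By the median transcript length, levels in control were 910 normalized counts per kb for *Ndufa13*, 332 normalized counts per kb for *Ndufb2*, 290 normalized counts per kb for *Sdha*, 359 normalized counts per kb for *Uqcrq*, 419 normalized counts per kb for *Uqcr11*, 650 normalized counts per kb for *Cox7b*, 2034 normalized counts per kb for *Atp5b*, 330 normalized counts per kb for *Atp5md*.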
